A study of Mus musculus with 2 samples.

Results

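The p53 target genes described here are *Cdkn1a*, *Mdm2*, *Trp53inp1*, *Bbc3*, *Psrc1*, *Plk2*, *Ccng1*, *Gtse1*, *Gdf15* and *Phlda3*, 10 of the 22620 genes counted in both libraries. They were taken by symbol, and their raw counts were followed across high endothelial, other endothelial, cancer and immune cells. The genes were chosen by name with earlier values of these data in view, the high *Mdm2* of an endothelial subcluster among them. Their levels in these cells are therefore a description.

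p53, encoded by *Trp53* in the mouse, is a transcription factor that is stabilised after DNA damage and other stress and that binds pairs of short half-sites in DNA. Its target genes halt the cell cycle, promote apoptosis and repair, and, through *Mdm2*, limit p53 itself. Several of these genes are also known to respond to other stress pathways.

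Single cells were profiled from primary tumours and paired lymph nodes (LNs) of C57BL/6J mice bearing EO771-HEVM3 tumours. Each tissue gave 1 library, pooled from 6 mice. The study's methods say that its mice were female and its C57BL/6 mice 5 to 6 weeks old when obtained. EO771 is a mouse breast cancer cell line, and HEVM3 is its derivative enriched over 3 rounds in mice for cells that reached the lung by way of the LN. From exome sequencing, the study lists *Trp53* as mutant in both the parental EO771 line and HEVM3. Both groups carried the same tumour line and differed in tissue, but also in dissociation, which took 2 h for tumours and 1 h for LNs with different enzymes, and these cannot be told apart. No cell can be assigned to a mouse, so no difference below has a replicate check. Levels are unique molecular identifiers (UMIs) of a gene, scaled to 1000000 UMIs of the same cells (CPM). Values in parentheses are exact 95% intervals (Poisson for levels, Clopper-Pearson for shares, the split of both counts for ratios), which cover counting error only.

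After filtering, 8756 primary tumour cells and 9689 LN cells were kept, with median depths of 9383 and 2324 UMIs. Cell classes were rebuilt from clusters and marker genes and may differ from those of the study, and each class name means cells like that type. The LN library held 58 cells like high endothelial cells (HEC-like), which line the high endothelial venules through which lymphocytes enter LNs, and 136 other endothelial cells. Endothelial cells of the primary tumour numbered 49, and cancer cells numbered 610 in the LN and 6121 in the tumour. Median depth was 32109.5 UMIs in HEC-like cells, 8494 in other LN endothelial cells and 6230 in tumour endothelial cells. The libraries held 173317475 (tumour) and 122207852 (LN) UMIs before filtering. They shared 47 barcodes, of which 31 were kept and 1 belonged to an HEC-like cell.

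The HEC-like class was set against its markers. *Glycam1*, *Chst4* and *Fut7*, by which it was chosen, had UMIs in 75.9%, 63.8% and 67.2% of its cells and in 15.4%, 5.88% and 9.56% of other LN endothelial cells. These shares are not adjusted for depth, which was higher in HEC-like cells. In CPM the 3 genes were at 3610, 987 and 1093 in HEC-like and 123, 31.2 and 49.9 in other LN endothelial cells. Of 8 general endothelial markers 7 were detected, with *Pecam1* at 125 CPM and *Cdh5* at 153 CPM, while *Cldn5* was at 0. The 8 markers summed to 896 CPM in HEC-like cells, 1539 CPM in other LN endothelial cells and 4709 CPM in tumour endothelial cells. Markers of other classes were summed as well. The 8 cancer markers summed to 86.8 CPM in HEC-like cells (7 detected, *Cldn7* at 0), 202 CPM in other LN endothelial cells and 4967 CPM in LN cancer cells. The 6 T cell markers summed to 33.2 CPM in HEC-like and 77.1 CPM in other LN endothelial cells, and the 6 B cell markers to 44.5 and 86.7 CPM. Plasmacytoid dendritic markers summed to 1655 CPM, but *Siglech*, *Ccr9* and *Klk1* were at 0. The 5 natural killer cell markers summed to 166 CPM in HEC-like and 172 CPM in other LN endothelial cells, with *Ncr1*, *Klrb1c* and *Klra8* at 0. The 3 tumour cells that joined the HEC-like subclusters had 0 UMIs of *Glycam1*, *Chst4* and *Fut7* and are left out.

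Start regions from 250 bases before to 50 bases after a RefSeq transcript start (GRCm38.p6) were matched for 9 of the 10 genes in 15 windows. They were searched on both strands for the p53 half-site consensus, a motif of 10 bases. It was present in 4 of these 15 windows, 1 each of *Cdkn1a*, *Mdm2*, *Ccng1* and *Gtse1*. Over all 32851 windows of the table it was present in 8.36%. A pair of half-sites at most 13 bases apart was present in 1 of the 15 windows, from *Cdkn1a*, and in 0.0731% of all windows. The windows with a match are shown because they place the consensus relative to the start. Each is written 5′ to 3′ on the strand of its gene, with half-sites in capitals. They lie at chr17:29090729-29091028 on the plus strand (*Cdkn1a*), chr10:117710709-117711008 on the minus strand (*Mdm2*), chr11:40755237-40755536 on the minus strand (*Ccng1*) and chr15:85859696-85859995 on the plus strand (*Gtse1*).
Cdkn1a: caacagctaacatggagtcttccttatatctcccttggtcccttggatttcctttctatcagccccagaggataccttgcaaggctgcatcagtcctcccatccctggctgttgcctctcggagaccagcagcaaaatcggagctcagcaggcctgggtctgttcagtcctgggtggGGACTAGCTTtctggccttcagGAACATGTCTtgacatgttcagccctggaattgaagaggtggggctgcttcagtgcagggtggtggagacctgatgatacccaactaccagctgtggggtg
Mdm2: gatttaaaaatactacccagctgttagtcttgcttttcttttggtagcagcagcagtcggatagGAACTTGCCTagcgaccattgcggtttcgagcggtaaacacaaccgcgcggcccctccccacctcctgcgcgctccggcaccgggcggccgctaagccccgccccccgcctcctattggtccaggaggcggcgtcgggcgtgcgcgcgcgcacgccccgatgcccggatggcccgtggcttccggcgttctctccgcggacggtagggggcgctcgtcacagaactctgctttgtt
Ccng1: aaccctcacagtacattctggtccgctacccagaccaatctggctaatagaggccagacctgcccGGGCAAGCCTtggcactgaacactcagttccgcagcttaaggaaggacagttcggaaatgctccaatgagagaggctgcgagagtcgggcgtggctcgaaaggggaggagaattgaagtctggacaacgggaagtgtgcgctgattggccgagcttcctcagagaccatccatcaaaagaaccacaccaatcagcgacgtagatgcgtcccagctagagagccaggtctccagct
Gtse1: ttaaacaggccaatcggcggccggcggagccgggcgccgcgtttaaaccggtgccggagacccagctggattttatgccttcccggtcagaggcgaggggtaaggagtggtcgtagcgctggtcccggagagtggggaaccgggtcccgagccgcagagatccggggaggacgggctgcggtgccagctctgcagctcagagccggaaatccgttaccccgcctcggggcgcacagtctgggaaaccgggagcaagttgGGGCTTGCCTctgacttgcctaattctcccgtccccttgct
The half-sites of *Cdkn1a* begin 73 and 51 bases before the transcript start of their window. That of *Mdm2* begins 186 bases and that of *Ccng1* 185 bases before the start, and that of *Gtse1* 9 bases after it. *Cdkn1a* and *Gtse1* each also had a window, at another transcript start, without a match. *Bbc3*, *Psrc1*, *Plk2*, *Gdf15* and *Phlda3* had no match in their windows, and *Trp53inp1* had no window. A match is a description and not a bound site, and the absence of one says only that these letters are not in the window.

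All 10 genes are annotated as protein coding by GENCODE on GRCm38. *Cdkn1a* lies on chromosome 17 (29090976 to 29100727), *Mdm2* on 10 (117688875 to 117710758), *Trp53inp1* on 4 (11156431 to 11174379), *Bbc3* on 7 (16308393 to 16318205) and *Psrc1* on 3 (108383839 to 108388231). *Plk2* lies on chromosome 13 (110395046 to 110400844), *Ccng1* on 11 (40748552 to 40755311), *Gtse1* on 15 (85859745 to 85876573), *Gdf15* on 8 (70629393 to 70632456) and *Phlda3* on 1 (135766119 to 135769136). UMIs were counted per gene, so exons and transcripts are not told apart.

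Over 18 groups of at least 20 cells, each a named class in 1 library, 9 of the 10 genes were highest in HEC-like cells. The exception was *Trp53inp1*, whose highest level was that of 77 tumour T cells. A further 493 tumour cells led by *Cd8a*, with 87.4 CPM of *Trp53inp1*, stayed unnamed and were not ranked. HEC-like cells were 0.599% of kept LN cells and held 3.71% of their UMIs. They held 53.4% of the LN UMIs of *Gtse1*, 45.0% of those of *Mdm2*, 34.6% of *Gdf15* and 31.7% of *Cdkn1a*, down to 6.26% of *Trp53inp1*. The interval of the highest group overlapped that of the second for *Phlda3* and for none of the other 9 genes. How many of all genes were highest in HEC-like cells, or had such intervals apart, was not counted. These counts therefore describe the 10 genes without a background.

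**Figure D1:**
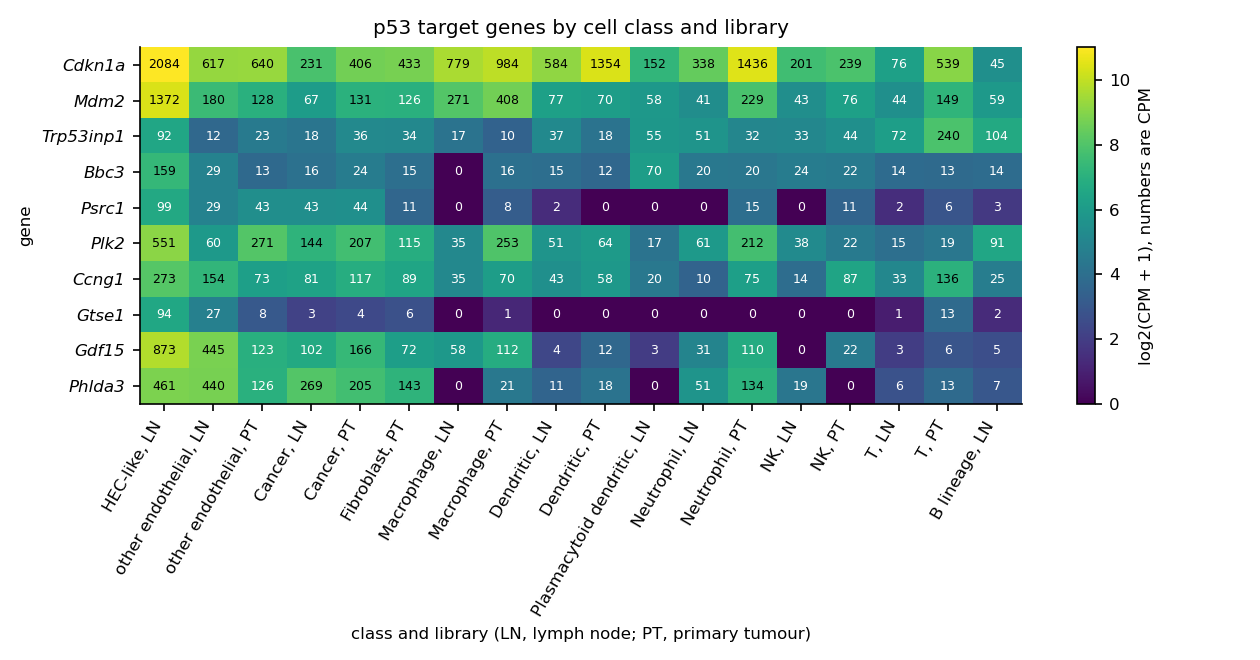
CPM of each p53 target gene in each named class and library, with colour for log2(CPM + 1) and the CPM printed in each field. The HEC-like column is highest in every row except *Trp53inp1*, which is highest in the 77 primary tumour T cells at 240.1 CPM.

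*Mdm2* and *Ccng1* act back on the pathway. *Mdm2*, the ubiquitin ligase that targets p53 for degradation, had 1372 CPM (1319 to 1426) in HEC-like cells. Its level was 180.4 CPM (162 to 200.1) in other LN endothelial cells and 128 CPM (95.4 to 168) in tumour endothelial cells, so the HEC-like interval lay far above both. Tumour macrophages came second at 408 CPM, and cancer cells had 67.5 CPM in the LN and 131 CPM in the tumour. *Ccng1*, cyclin G1, a partner of protein phosphatase 2A that acts on Mdm2, had a level in HEC-like cells of 273 CPM (250.0 to 298). It was at 154 CPM (137 to 172) in other LN endothelial cells, second among all groups, and at 72.8 CPM (48.8 to 105) in tumour endothelial cells.

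Cell cycle genes were next. *Cdkn1a* encodes p21, an inhibitor of cyclin-dependent kinases, and its HEC-like level was 2085 CPM (2019.5 to 2151). It was at 617 CPM (583 to 652) in other LN endothelial cells and 640.5 CPM (564 to 724) in tumour endothelial cells, whose intervals overlap. Tumour neutrophils and dendritic cells followed HEC-like cells with 1436 and 1354 CPM. *Plk2*, a polo-like kinase, reached 551 CPM (517 to 585) in the HEC-like class but 60.5 CPM (50.1 to 72.3) in other LN endothelial cells, below the 271 CPM (223 to 327) of tumour endothelial cells. *Gtse1*, a microtubule-binding protein of G2 and S phase, reached 93.7 CPM (80.4 to 109) in the HEC-like class and 26.7 CPM (20.01 to 34.9) in other LN endothelial cells. Elsewhere *Gtse1* was rare, with 3 UMIs in tumour endothelial cells and 3.49 and 4.45 CPM in LN and tumour cancer cells. *Psrc1*, a spindle-associated protein, reached 99.1 CPM (85.3 to 114) in the HEC-like class, 28.7 CPM (21.8 to 37.2) in other LN endothelial cells and 42.7 CPM (24.9 to 68.4) in tumour endothelial cells.

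Among the apoptosis genes, *Bbc3*, which encodes the BH3-only protein Puma, reached 159 CPM (141 to 178) in the HEC-like class and 28.7 CPM (21.8 to 37.2) in other LN endothelial cells. Tumour endothelial cells had 5 UMIs of *Bbc3*, and plasmacytoid dendritic cells of the LN came second with 70.0 CPM. *Trp53inp1*, a nuclear protein that promotes p53-dependent apoptosis, reached 91.6 CPM (78.4 to 106) in the HEC-like class and 12.1 CPM (7.75 to 18.0) in other LN endothelial cells. It was higher in the 77 tumour T cells at 240.1 CPM (169 to 331), from 37 UMIs, and of these cells 55 came from a cluster led by *Tnfrsf4* and holding *Foxp3* and *Ctla4* among its leading genes. In 493 unnamed tumour cells led by *Cd8a*, *Cxcr6*, *Klrc1* and *Pdcd1*, which are outside the named groups, it was at 87.4 CPM (70.7 to 107). LN B lineage cells had 104 CPM (98.1 to 110.1), whose interval overlaps that of HEC-like cells.

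The last genes code for a secreted factor and an inhibitor of Akt. *Gdf15*, a stress-induced cytokine of the TGF-beta superfamily, reached 873 CPM (831 to 916) in the HEC-like class, 445 CPM (416 to 475) in other LN endothelial cells and 123 CPM (91.0 to 163) in tumour endothelial cells. *Phlda3*, a PH-domain protein that inhibits Akt, reached 461 CPM (431 to 493) in the HEC-like class and 440.0 CPM (411 to 470.2) in other LN endothelial cells, with overlapping intervals, and at 126 CPM (93.2 to 166) in tumour endothelial cells. Lymphocytes of the LN had little of either, with 2.96 CPM of *Gdf15* and 5.84 CPM of *Phlda3* in T cells.

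The level of a class can rest on few cells, so single cells were examined. *Mdm2* ran from 1 to 237 UMIs per HEC-like cell with a median of 21.5, and 50 of 58 cells had at least 10. In other LN endothelial cells it ran from 0 to 39 UMIs, and 11 of 136 cells had at least 10. HEC-like cells were also deeper, with a median of 32109.5 UMIs against 8494, so these UMIs per cell are not like for like. In CPM of the cell, the median *Mdm2* level of HEC-like cells was exceeded by 15 of 136 other LN endothelial cells and 0 of 49 tumour endothelial cells. For *Mdm2*, HEC-like cells were thus high as a group, with an overlap. The HEC-like median was exceeded by 21 other LN endothelial cells for *Cdkn1a*, 7 for *Plk2* and 65 for *Phlda3*. The top HEC-like cell held 9.25% of the *Mdm2* UMIs of the class, 17.1% was held by the top cell for *Gdf15* and 20.5% for *Trp53inp1*. For *Gdf15* 1 other LN endothelial cell held 27.3% of the UMIs, and the level without it was 331 CPM.

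**Figure D2:**
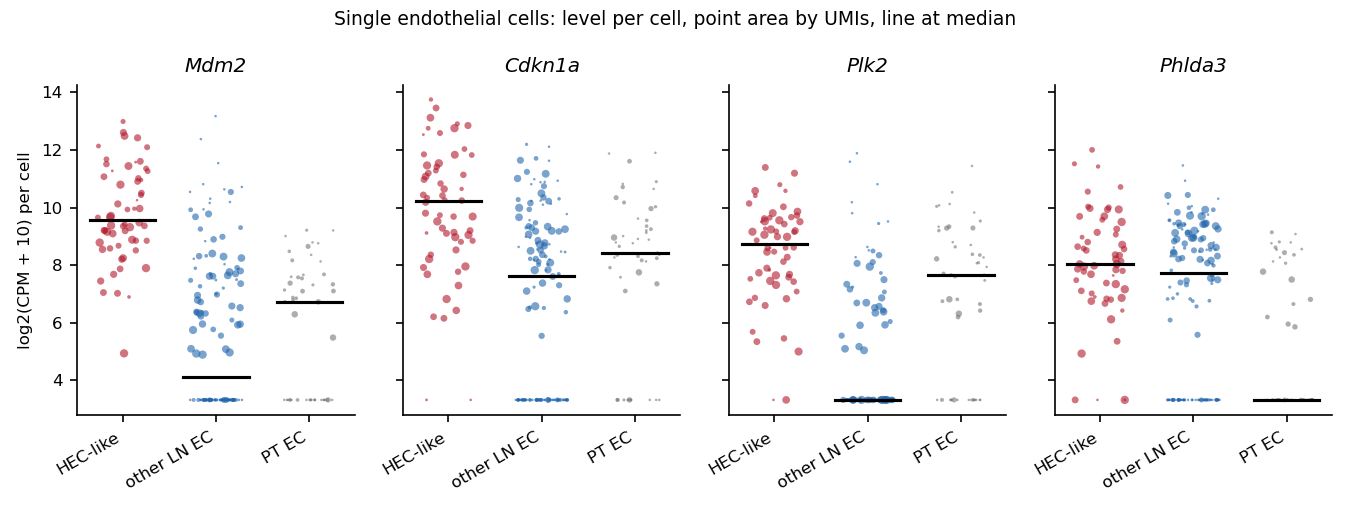
Level per cell, as log2(CPM + 10), of 4 p53 target genes in 58 HEC-like cells, 136 other LN endothelial cells (other LN EC) and 49 primary tumour endothelial cells (PT EC). Each point is 1 cell with its area set by its UMIs within limits, and the line is the median, which is highest in HEC-like cells in each panel, although for *Phlda3* 65 of the 136 other LN cells exceed it.

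Shares of cells with a UMI were compared as the share expected if each cell were thinned to 1000 UMIs, because HEC-like cells were deeper. For *Mdm2* this share was 58.3% (44.6% to 71.1%) in HEC-like, 12.6% (7.27% to 19.8%) in other LN endothelial and 13.2% (5.12% to 26.3%) in tumour endothelial cells. Before thinning the shares were 100%, 50% and 57.1%. LN T cells, with a median depth of 2998.5 UMIs, had a thinned *Mdm2* share of 4.47% and a *Gdf15* share of 0.289%. Thinned *Gdf15* shares were 38.4% (26.0% to 52.1%) in HEC-like and 18.2% (11.8% to 26.2%) in other LN endothelial cells. The intervals of these 2 groups were apart for *Cdkn1a*, *Mdm2* and *Plk2* and overlapped for the other 7 genes. This was not counted over all genes, so it has no background here. Thinning left out 0 HEC-like, 14 other LN endothelial and 2 tumour endothelial cells with fewer UMIs. A mean of 2.91 of the 10 genes was expected per thinned HEC-like cell, against 1.16 in other LN and 1.05 in tumour endothelial cells.

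Ratios of HEC-like to other LN endothelial cells were then taken over 8000 genes with at least 30 UMIs in both groups together, which all 10 members reached. Of the members 7 were at least 2-fold higher in HEC-like cells, where 8.28% of genes were, and 0 were at least 2-fold lower, where 10.5% were. Their median log2 ratio was 1.79 beside -0.029 for all genes. On that scale *Plk2* was at 3.18 (2.91 to 3.47), *Mdm2* at 2.92 (2.77 to 3.09) and *Trp53inp1* at 2.90 (2.30 to 3.60). *Bbc3* followed with 2.46, *Gtse1* with 1.80, *Psrc1* with 1.78 and *Cdkn1a* with 1.76. Below the 2-fold limit stood *Gdf15* at 0.97 (0.85 to 1.09), *Ccng1* at 0.83 (0.62 to 1.04) and *Phlda3* at 0.068 (-0.070 to 0.21).

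Depth moved with this comparison, and it was repeated in cells of at least 20000 UMIs, 50 HEC-like cells with a median of 33187 UMIs and 41 others with a median of 34997. Again 7 of the 10 genes were at least 2-fold higher, against 7.45% of 7533 genes, with a median log2 ratio of 1.43. *Mdm2* was at 2.75 (2.57 to 2.94), *Plk2* at 3.14 (2.83 to 3.49) and *Trp53inp1* at 3.23 (2.47 to 4.22) among these deep cells. *Phlda3* was lower in HEC-like cells there, at -0.29 (-0.43 to -0.14). Where HEC-like cells were instead defined by UMIs of at least 2 of the 3 marker genes (47 cells) against none (119 cells), 5 of the 10 genes were at least 2-fold higher, against 6.19% of 7426 genes. Median depth was 29965 UMIs in the former and 8787 in the latter, and *Gdf15* was at -0.095.

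**Figure D3:**
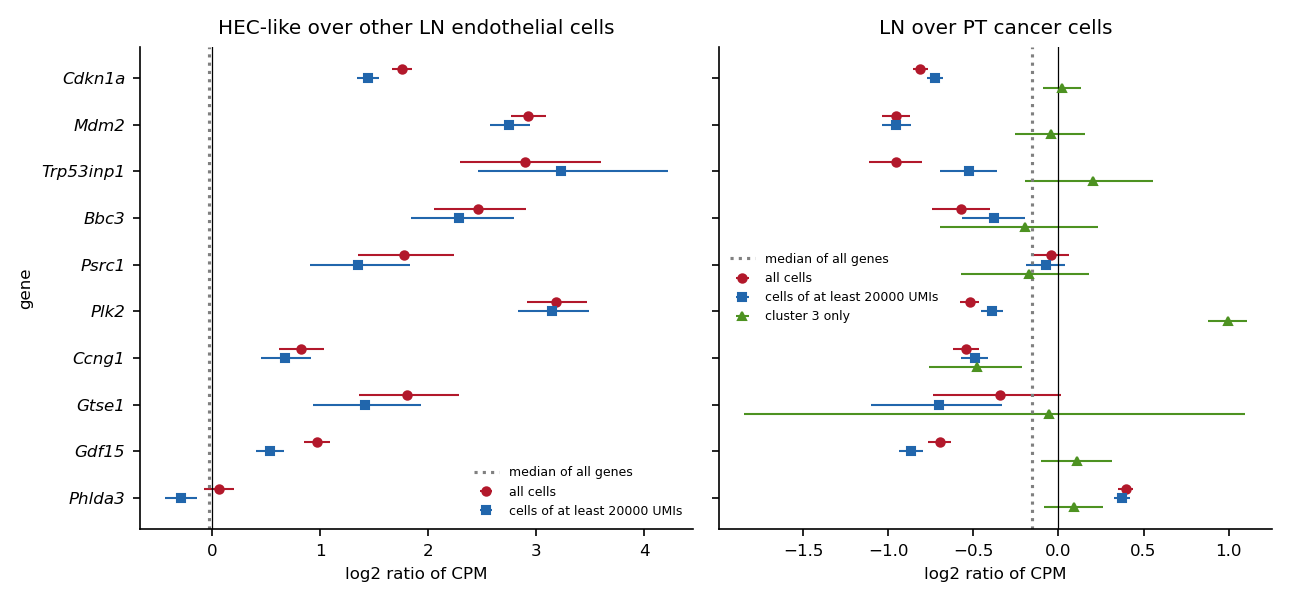
Log2 ratio of CPM of each p53 target gene with its exact 95% interval, on the left for HEC-like over other LN endothelial cells and on the right for LN over primary tumour (PT) cancer cells. Circles are all cells, squares cells of at least 20000 UMIs, triangles cluster 3 alone, and the dotted line is the median of all genes. On the left 7 circles lie beyond 1, where 8.28% of all genes do, and on the right 9 of 10 lie below 0, where 7226 of 12086 genes do.

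The HEC-like class joined subcluster 3 (35 LN cells) and subcluster 5 (23 cells) of the endothelial cells, from a clustering that left the members out of its variable genes. *Mdm2* was at 1638 CPM in subcluster 3 and 961 CPM in subcluster 5, and also at 1144 CPM in subcluster 8, 16 shallow cells (median 1269.5 UMIs) counted as other endothelial. Those cells also had *Glycam1* at 2.63-fold and *Chst4* at 1.23-fold their level in the rest of the endothelial cells (10 CPM added to both), and *Fut7* at 0.433-fold. For *Mdm2*, the deep subclusters 4 and 6 had 287 and 120.4 CPM, and the shallower subclusters 0 and 7 had 53.9 and 7.80 CPM. *Mdm2* was thus high in 3 subclusters of unlike depth. *Plk2* was at 549, 553 and 551 CPM in subclusters 3, 5 and 8, the last from 13 UMIs (293 to 942). *Gtse1* was at 132 CPM in subcluster 3 and 34.0 CPM in subcluster 5, and subcluster 8 had 2 UMIs of it. Subclusters 4 and 6, counted as other endothelial, had 48.2 and 14.4 CPM of *Gtse1*. The intervals of subclusters 4 and 5 overlapped. Of the 175 *Gtse1* UMIs of HEC-like cells, 150 came from subcluster 3, so the high HEC-like level of this gene rested mainly on that subcluster. *Phlda3* was highest in subclusters 4 and 6, at 555 and 525 CPM, against 434 CPM in subcluster 3. The cells of subcluster 3 changed class with the settings. With doublets kept, 35 of 35 were counted as other endothelial cells and the median log2 ratio was 0.45, and with a mitochondrial limit of 10% 31 were and it was 0.62. Members at least 2-fold higher then numbered 2, against 5.87% of genes, and 2, against 7.22%. At resolution 0.5 25 of the cells were counted as other endothelial and the median was 1.74, and with each library clustered on its own 23 were and it was 1.96.

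**Figure D4:**
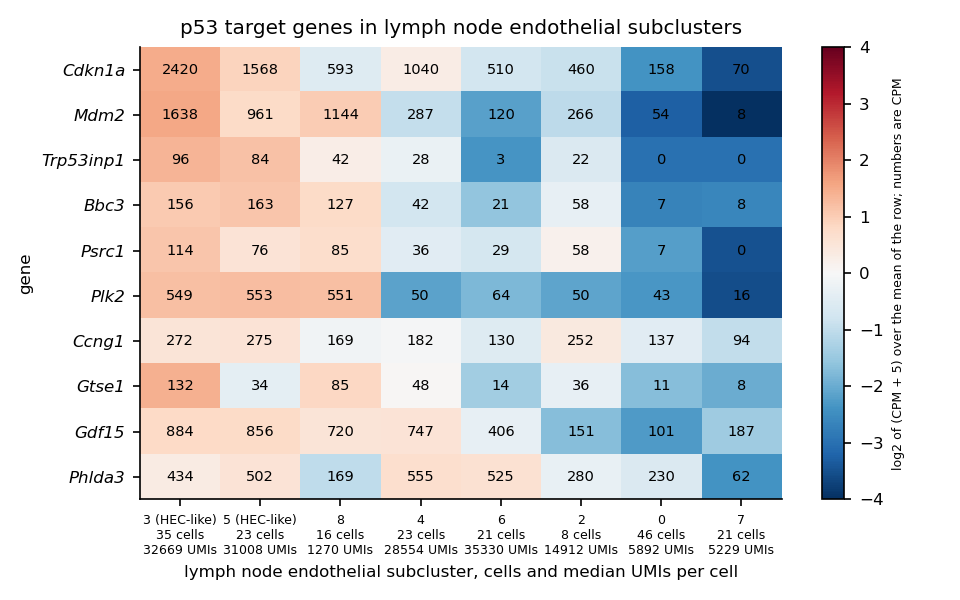
CPM of each p53 target gene in LN endothelial subclusters of at least 8 cells, with colour for log2 of (CPM + 5) over the mean of the row, and the number of cells and their median UMIs under each column. Subclusters 3, 5 and 8 are high in *Mdm2* and *Plk2*, while *Phlda3* is highest in subclusters 4 and 6.

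Pairs of members were also correlated over single cells. Over 142 LN endothelial cells of at least 5000 UMIs, 45 of 45 pairs had a Pearson correlation of log levels above 0, with a median of 0.52 and the highest, 0.75, between *Mdm2* and *Plk2*. Within 57 HEC-like cells the median was 0.48. In cancer cells it was 0.17 over 5392 tumour cells and 0.22 over 597 LN cells. Cells of each set share 1 library and differ in depth, and other pairs of genes were not examined, so these are descriptions.

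Other genes of the pathway came from lists that were also made with earlier results known. *Trp53* was at 242 CPM in HEC-like, 175 CPM in other LN endothelial and 118 CPM in tumour endothelial cells, a log2 ratio of 0.46 (0.26 to 0.67) within the LN. Of 11 p53 regulators 8 passed the filter, 2 were at least 2-fold higher in HEC-like cells and 1 lower. Over all genes 8.28% were at least 2-fold higher and 10.5% lower. The higher were *Ppm1d*, a phosphatase that dampens p53 signalling (1.33), and *Mdm4*, the partner of Mdm2 (1.07), and the lower was the checkpoint kinase gene *Chek2* (-1.16). Of 28 further targets 23 passed, 12 were at least 2-fold higher and 0 lower, with a median of 1.06. Among them were *Ddit4*, an mTORC1 inhibitor (3.39), *Ercc5*, a DNA repair nuclease (2.15), and *Btg2*, an antiproliferative gene (1.78). The apoptosis effector *Bax* was at -0.015 (-0.14 to 0.11).

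Lists of other stress genes were counted in the same cells. Of 12 immediate early genes 3 were at least 2-fold higher in HEC-like cells, where 8.28% of all genes were, with *Jun* at 2616 against 581 CPM and *Atf3* at 731 against 99.3 CPM, while *Fos* was at 34.3 against 48.4 CPM. Of 10 integrated stress response genes 1 was, and of 8 heat shock genes 0 were higher and 2 lower by that limit, where 10.5% of all genes were lower. Of 20 mitosis genes 2 were higher and 5 lower, with a median of -0.30. Their part in the levels of the p53 target genes was not tested.

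HEC-like cells were also set against tumour endothelial cells, in the other library. By this ratio 10 of 10 genes were at least 2-fold higher, against 21.3% of 6916 genes, and 0 lower, against 24.1%. The median log2 ratio was 1.91, from 1.02 (0.73 to 1.32) for *Plk2* to 3.53 (2.42 to 5.30) for *Bbc3*. The HEC-like cells are those of the comparison within the LN, and both share them. Of the 12 immediate early genes 9 were at least 2-fold lower in HEC-like cells and 1 higher, and of the 10 integrated stress response genes 7 were higher and 1 lower. Their part was not tested, and library and tissue cannot be told apart.

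Other LN endothelial cells differed less evenly from tumour endothelial cells. Of the 10 genes 5 were at least 2-fold higher in the LN, against 19.4% of 7178 genes, and 1 was lower, against 24.3%. The median log2 ratio was 0.77, and 1.31 to 1.498 under 5 of the other settings. The other LN endothelial cells are those compared with HEC-like cells. *Gdf15* was higher in the LN at 1.84 (1.44 to 2.30) and *Phlda3* at 1.80 (1.40 to 2.25), and *Ccng1* was at 1.06 (0.53 to 1.68). *Gtse1* was at 1.62 (0.20 to 4.15) and *Bbc3* at 1.07 (-0.11 to 2.87). *Plk2* was lower in the LN at -2.17 (-2.55 to -1.78), and *Cdkn1a* was level at -0.056 (-0.25 to 0.15). Tumour endothelial cells had 9 UMIs of *Trp53inp1*, 5 of *Bbc3* and 3 of *Gtse1*, so these ratios have wide intervals. Of the immediate early genes 11 of 12 were at least 2-fold lower in these LN cells, with a median of -2.52, and their part in the p53 target genes was not tested.

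In cancer cells most members were lower in the LN than in the primary tumour, by less than 2-fold. Of the 10 genes 9 were lower, 7 of them with an interval below 0, and the median log2 ratio was -0.56 beside -0.15 for 12086 genes. Of those 12086 genes 7226 were also lower in the LN, and 5696 had an interval below 0. Those at least 2-fold lower numbered 0, against 10.2% of genes, and those at least 2-fold higher 0, against 8.08%. Without an upper limit on detected genes 2 were at least 2-fold lower, but the share of all genes was not counted at that setting. *Mdm2* was at -0.95 (-1.04 to -0.87) and *Trp53inp1* at -0.95 (-1.11 to -0.80), just short of the limit. *Cdkn1a* was at 231 CPM (225 to 238) in the LN and 406 CPM (402 to 409.7) in the tumour, a ratio of -0.81. *Gdf15* (-0.70), *Bbc3* (-0.57), *Ccng1* (-0.54) and *Plk2* (-0.52) were lower as well. For *Psrc1* the ratio was -0.045 (-0.15 to 0.060) and for *Gtse1* -0.34 (-0.73 to 0.013), with intervals across 0. *Phlda3* was higher in the LN at 0.40 (0.35 to 0.44). Its level was 269 CPM (262 to 276) in LN and 205 CPM (202 to 208) in tumour cancer cells, whose intervals lay apart. *Gdf15* was at 102 CPM (98.1 to 107) and 166 CPM (164 to 169), in the opposite order. Single LN cancer cells had up to 31 UMIs of *Mdm2* and tumour cancer cells up to 64, and the median cell of either had 1. *Trp53* itself, which the study lists as mutant in this line, was at 136 and 132 CPM. The part of that mutation in these levels was not tested. In cells of at least 20000 UMIs the median ratio was -0.51.

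Different clusters held most cancer cells of each library. Cluster 22, led by *Tff2* and *Krt19*, held 510 of the 610 LN cancer cells and 1 tumour cell, and cluster 3, led by *Tff1* and *Alb*, held 65 LN and 1229 tumour cells. Within cluster 3 the median log2 ratio of LN over tumour was -0.0091 beside -0.12 for all genes, with *Mdm2* at -0.041 (-0.25 to 0.16) and *Cdkn1a* at 0.023 (-0.092 to 0.13). *Plk2* was higher in its LN cells at 0.99 (0.88 to 1.11) and *Ccng1* lower at -0.48 (-0.76 to -0.21). Cluster 22 over all tumour cancer cells had a median of -0.75. Among tumour clusters *Mdm2* ran from 62.2 CPM in cluster 12 to 228 CPM in cluster 1, which was led by *Cyp1a1* and *Serpinb9b* and was also highest in *Cdkn1a* (719 CPM), *Gdf15* (407 CPM) and *Phlda3* (368 CPM).

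Of the 28 further targets 28 passed the filter in cancer cells, 10 were at least 2-fold lower in the LN and 0 higher, with a median of -0.58. Over all genes 10.2% were at least 2-fold lower and 8.08% higher. The death receptor gene *Fas* was at -1.87, the stress kinase gene *Plk3* at -1.78 and *Pmaip1*, which encodes the BH3-only protein Noxa, at -1.47. *Bax* was higher in the LN at 0.67. Immediate early genes differed too, with 7 of 12 at least 2-fold lower in LN cancer cells and a median of -1.73, as did 5 of 10 integrated stress response genes. Their part in the p53 target genes was not tested, and dissociation and tissue cannot be told apart.

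Cancer cells of each library were divided into 4 equal parts by their share of UMIs in 20 mitosis genes. Cells of equal share were split by their order in the data. The lowest part had 0 CPM of the mitosis genes in the tumour and 63.6 CPM in the LN. The least mitotic parts of the 2 libraries are therefore not alike. *Cdkn1a* was at 494 CPM in the least and 259 CPM in the most mitotic part of the tumour, a log2 ratio of -0.93 (-0.98 to -0.89). In the LN it was at 243 and 253 CPM, a ratio of 0.055 (-0.060 to 0.17). *Trp53inp1* was lower in the most mitotic part at -1.93 in the tumour and -0.93 in the LN, and *Plk2* at -0.64 and -0.53. *Gtse1* was higher at 3.38 (2.61 to 4.41) in the tumour and 3.24 (1.78 to 5.79) in the LN. *Psrc1* was at 0.14 (-0.0016 to 0.28) and 0.74 (0.46 to 1.02). The members thus did not share a direction. *Mdm2* was at -0.21 (-0.29 to -0.13) in the tumour and -0.16 (-0.38 to 0.068) in the LN. *Bbc3* was at -0.44 (-0.63 to -0.26) and 0.10 (-0.37 to 0.58), and *Ccng1* at -0.72 (-0.81 to -0.63) and 0.014 (-0.19 to 0.22), so both were lower in mitotic tumour cells while their LN intervals held 0. For *Gdf15* both intervals held 0, at 0.073 (-0.0030 to 0.15) and 0.14 (-0.037 to 0.33), while *Phlda3* was lower in mitotic tumour cells (-0.22) and higher in mitotic LN cells (0.23). *Trp53* was higher in the most mitotic cells of both libraries, at 1.27 (1.17 to 1.36) and 0.83 (0.66 to 1.01). Depth moved with the parts, from a median of 8061 to 22525 UMIs in the tumour and from 30421 to 36661 in the LN, and its part was not tested.

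**Figure D5:**
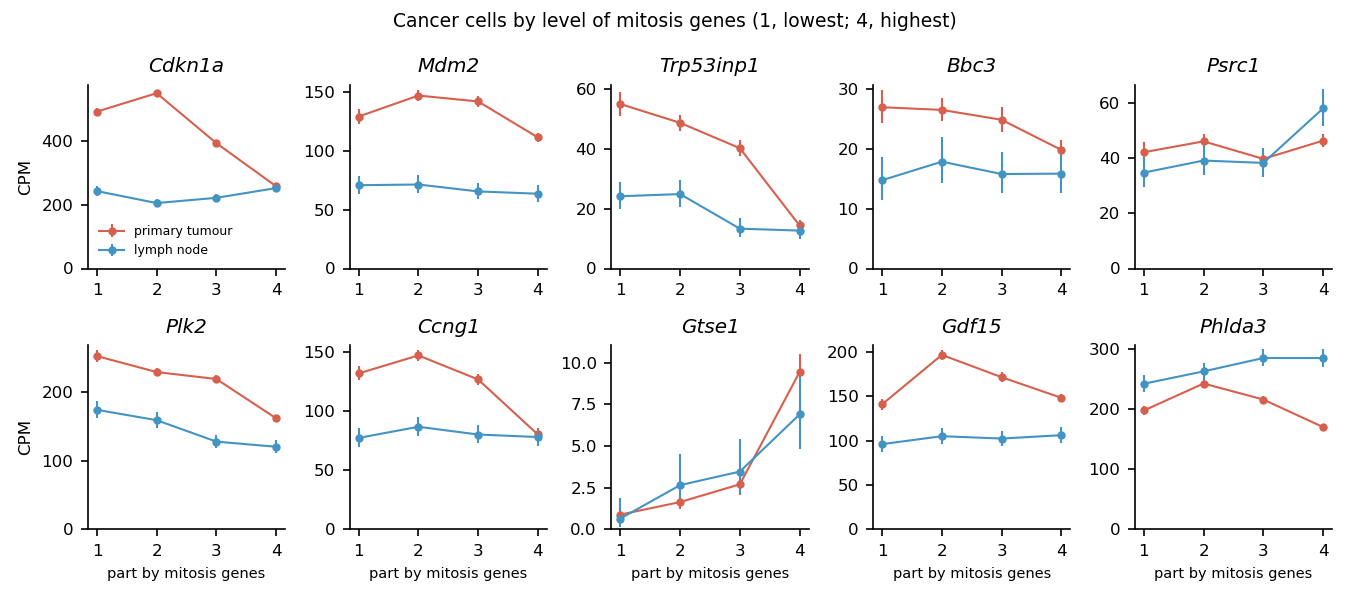
CPM of each p53 target gene in 4 equal parts of the cancer cells of each library, from the lowest (1) to the highest (4) share of UMIs in mitosis genes, with exact 95% Poisson intervals. *Cdkn1a* ends at 259 CPM in the primary tumour from 494 CPM, and *Gtse1* is highest in the fourth part of both libraries.

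Immune classes differed by gene. *Cdkn1a* was at 584 CPM in dendritic cells and 779 CPM in macrophages of the LN, and at 1354 and 984 CPM in those of the tumour, but at 44.6 CPM in LN B lineage cells. *Plk2* was at 90.6 CPM in LN B lineage cells and 15.3 CPM in LN T cells, the lowest of the 18 groups. *Trp53inp1* was at 71.8 CPM in LN T cells, below the level in the 77 T cells of the tumour. The lymphocyte classes thus differed in order between these genes. *Gdf15* was at 112 CPM in tumour macrophages, 72.4 CPM in fibroblasts and 109.5 CPM in tumour neutrophils. *Phlda3* was at 143 CPM in fibroblasts and 20.6 CPM in tumour macrophages, and *Ccng1* at 88.8 and 70.1 CPM. *Gtse1* was rare in lymphocytes, with 11 UMIs in 3708 LN T cells and 17 in 4720 LN B lineage cells. LN macrophages had 0 UMIs of *Bbc3*, *Psrc1*, *Gtse1* and *Phlda3*. For each the floor of 3 counts is 17.3 CPM and the upper end of the exact interval 21.3 CPM.

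The genes most like each member over the 18 groups were ranked by the Pearson correlation of log2(CPM + 10) among 11512 genes. *Gtse1* was most like *Zfp820* (0.98) and *Kctd4* (0.92), *Mdm2* most like *Cxcl10* (0.90) and *Lonrf3* (0.87), and *Plk2* most like *Oas1g* (0.87). The first gene was *Krcc1* for *Cdkn1a* (0.81), *Rsf1* for *Trp53inp1* (0.84), *Bloc1s2* for *Bbc3* (0.80) and *Tnfrsf12a* for *Psrc1* (0.92). For *Ccng1* it was *H1f0* (0.92), for *Gdf15* *Homer3* (0.92) and for *Phlda3* *Cavin3* (0.94). A gene high in few groups can owe such a correlation to them. *Gtse1* was at 93.7 CPM in HEC-like cells, 26.7 CPM in other LN endothelial cells and 0 in several groups. *Cxcl10* and *Kctd4* were among the leading genes of the HEC-like subclusters 3 and 5. The groups also share 2 libraries, so these values are descriptions.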

How the data were processed

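Single-cell libraries of a primary tumour pool and an LN pool were deposited as matrices of UMI counts per gene and cell, which the authors had made from 10x 3′ libraries with Cell Ranger (version 5.0.0 per the file headers, 2.1.1 per the submitters' processing notes, and another in the study's reporting summary) on GRCm38. Whether doublets were removed before deposit is not given in the sources used here. Both deposited count files list 22620 genes, and 0 columns of per-sample values were left unused.

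Cells with 200 to 6000 detected genes and at most 5% mitochondrial UMIs were kept. Scrublet marked 391 of 9147 tumour cells (4.27%) by its automatic threshold. In the LN that threshold marked 0, so the cells above percentile 94 of the score, 616 of 10305 (5.98%), were removed. Counts per 10000 UMIs were clustered by Leiden (30 principal components, 15 neighbours, resolution 1), with the members and list genes left out of the 2000 variable genes and cell cycle scores regressed out, and named by markers. Cluster 5, led by *Cd8a*, *Cxcr6*, *Klrc1* and *Pdcd1*, stayed unnamed (23 LN and 493 tumour cells).

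Counts were summed per class and library. Ratios of CPM used 0.5 added UMIs and genes of at least 30 UMIs in both groups together, and differences were judged by a fold of at least 2. With 1 library per tissue there is no test. A share or level of 0 was bounded by a floor of 3 counts. The named genes were the 10 members, the list genes, and per member the 3 genes most correlated over the groups. The members and lists were chosen with earlier results of these data known. Positions came from the GENCODE vM21 annotation of GRCm38. DoubletFinder, Harmony and inferCNV, which the study used, were not run. Calculations used scanpy 1.11.5 with anndata 0.12.19, igraph 0.11.9, scikit-learn 1.9.0, pandas 2.3.3, scipy 1.17.1, numpy 2.4.6 and matplotlib 3.10.9 in Python 3.11.15, with cell cycle genes from Seurat 5.3.0, and were tested on simulated data. The alternatives were other limits on cells, doublets kept, separate clustering, another resolution, the mean of single-cell CPM, a left-out top cell, other gene filters and other thinning.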

Additional observations from a re-analysis of the deposited data

Results flagged for a closer look

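*Phlda3*, the inhibitor of Akt, went in opposite directions with the level of mitosis genes in cancer cells of the libraries. In the primary tumour its level was 197 CPM (189.9 to 205) in the least and 169.7 CPM (165 to 174) in the most mitotic cells, a log2 ratio of -0.22 (-0.28 to -0.15). In the LN it was 242 CPM (228 to 256) and 285 CPM (270.3 to 299), a log2 ratio of 0.23 (0.12 to 0.35). It drew attention because the intervals lie on opposite sides of 0, but each tissue has 1 library and the difference was not tested. The least mitotic parts were also unlike, at 0 CPM of the mitosis genes in the tumour and 63.6 CPM in the LN. Their median depths were 8061 and 30421 UMIs. In the tumour the level did not follow one direction across the parts, since it was 242 CPM (236 to 248) in the second.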

How the results depend on the processing

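Of 70 summary values recomputed under an alternative, 53 stayed close to the reported value and 17 did not; none changed sign. The comparison of HEC-like with other LN endothelial cells depended on the processing, with a median log2 ratio of the members of 0.62 and 0.45, and 2 and 2 members at least 2-fold higher, at a mitochondrial limit of 10% and with doublets kept. HEC-like cells then numbered 26 and 23, with most cells of subcluster 3 counted as other endothelial cells, and the cause was not tested. The settings chosen after seeing the data gave 1.43 in deep cells and 1.21 with the marker gate. For other LN over tumour endothelial cells the median was 1.43 at the 10% limit, 1.35 without an upper limit on genes, 1.498 with doublets kept, 1.31 at resolution 0.5 and 1.37 as the mean of single-cell CPM, and the cause was not tested. Members at least 2-fold lower in LN cancer cells, 0 as reported, numbered 1 at the 10% limit, 2 without the gene limit, 1 as the mean of single-cell CPM and 1 without the top cell. The share of all genes was not counted at these settings and was 10.2% in the reported one. These counts are therefore not read as a result about the members. The median share of HEC-like cells with a UMI of a member was 27.5% at 1000 UMIs, 43.2% at 2000 and 93.1% unthinned. Of 370 single levels and shares, 155 moved beyond their counting interval. No paired analysis was possible because each tissue has 1 library. Small classes limit the depth behind *Gtse1*, *Bbc3* and *Trp53inp1*.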
